A study of Mus musculus with 47 samples.

Results

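A set of 10 genes expressed by neutrophils and monocytes was followed in tumors of the mouse melanoma line B78-D14 that carried truncating mutations of mitochondrial DNA at different loads. The genes were S100a8, S100a9, Csf3r, Cxcr2, Retnlg, Mmp8, Mmp9, Il1b, Chil3 and Ly6c2, chosen by name as 10 of the 56748 genes in a table of raw RNA-seq counts. All 10 were found, and 9 had enough reads to be tested in tumors among 16213 genes. Retnlg did not, with between 1 and 12 reads per tumor.

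B78-D14 is an amelanotic derivative of the B16 melanoma that lacks Cdkn2a. The m.12,436 groups carry a G-to-A change made in Mt-Nd5, a subunit gene of respiratory complex I, with a mitochondrial base editor (DdCBE), at about 60% or 40% heteroplasmy, meaning the share of mutant mitochondrial genomes. Cells of each kind were grafted under the skin of immunocompetent adult male C57BL/6 mice that received no further treatment, and RNA came from fragments of 4 control tumors, 7 m.12,436 40% tumors and 7 m.12,436 60% tumors. Cultures without a host served as background, 4 of m.11,944 60% cells (a G-to-A change at another site of Mt-Nd5, made in the same way) and 4 of control cells, all untreated. The series holds 47 samples, of which 26 were matched to a column of the table. Control columns were matched by name and numbering. The other column names give no mutation site. Tumors named high and low were taken as 60% and 40%, the use of these words in the source data of the paper. They were taken as m.12,436 because only those tumor groups are numbered up to 7. The m.11,944 cultures were matched through a heading in that source data. These matches are inferred. Labels do not say whether tumors of a group came from separate animals, so p values measure the spread between these samples. Between 16475735 and 31218475 reads per tumor and between 25249060 and 36173502 per culture were counted on genes. Ptprc, which encodes the leukocyte surface protein CD45, had 1 read in all over the 8 cultures and between 51.0 and 154 CPM (counts scaled to a common library size) in the tumors. All these RNAs come from bulk tissue, in which fewer cells of a type and less RNA per cell cannot be told apart.

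Neutrophils are short-lived cells made in bone marrow under the growth factor G-CSF. They store granule proteins that are largely transcribed before the cells leave the marrow, and CXC chemokines call them into tissue through the receptor CXCR2. Classical monocytes leave the marrow with high surface Ly6C and become macrophages in tissue. Both cell types carry S100A8 and S100A9, and the transcription factors C/EBP and PU.1 drive much of their gene program. Several of the genes are not particular to these cells, since macrophages make IL-1β and MMP9, and some T cells carry Ly6C.

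S100a8 (ENSMUSG00000056054) lies at chr3:90567118-90578128 on the + strand of GRCm39, and S100a9 (ENSMUSG00000056071) at chr3:90599931-90603071 on the − strand. Their promoters are shown with that of Cxcr2 because RNA of these genes varied together across the tumors, as described below. The sequences are the 250 bases before the RefSeq start of transcription in GRCm38.p6, 5′ to 3′ in the direction of transcription. Capitals mark the word TTNNGNAA, a form bound by C/EBP factors, or GAGGAA, a core bound by PU.1 and other ETS factors, each searched on both strands.
S100a8, chr3:90668821-90669070, + strand: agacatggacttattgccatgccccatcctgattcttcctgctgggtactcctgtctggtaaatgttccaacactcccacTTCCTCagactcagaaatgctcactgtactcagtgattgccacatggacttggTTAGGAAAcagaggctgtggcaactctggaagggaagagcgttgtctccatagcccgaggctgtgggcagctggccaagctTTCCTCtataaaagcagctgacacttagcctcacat
S100a9, chr3:90695722-90695971, − strand: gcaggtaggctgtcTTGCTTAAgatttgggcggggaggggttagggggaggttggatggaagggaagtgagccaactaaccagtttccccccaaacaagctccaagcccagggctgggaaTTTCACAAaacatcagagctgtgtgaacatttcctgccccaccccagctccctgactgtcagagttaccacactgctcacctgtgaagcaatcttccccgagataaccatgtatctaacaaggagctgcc
Cxcr2, chr1:74153744-74153993, + strand: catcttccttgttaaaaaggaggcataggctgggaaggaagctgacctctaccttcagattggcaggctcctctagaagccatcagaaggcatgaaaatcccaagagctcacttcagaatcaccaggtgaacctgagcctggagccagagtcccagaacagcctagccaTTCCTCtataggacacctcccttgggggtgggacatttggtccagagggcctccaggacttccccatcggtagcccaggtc
In S100a8 the C/EBP word began 117 bases before the start, and the ETS word began 170 and 36 bases before it. S100a9 held C/EBP words at 236 and 130 bases and no ETS word, and Cxcr2 held an ETS word at 81 bases and no C/EBP word. No word in these windows overlapped another. RefSeq promoters were found for 9 of the 10 genes, all but Mmp9. The C/EBP word stood in 7 of the 9 and in 36.8% of all 32851 mouse promoters of this length, and the ETS word in 5 of the 9 and in 23.3% of all. A match is a string of letters and not a measured binding site.

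A second set of sequences is shown because it bears on whether reads can be assigned to Ly6c2 at all. Ly6c2 (ENSMUSG00000022584, chr15:74980003-74988467, − strand, GRCm39) and its neighbor Ly6c1 (ENSMUSG00000079018, chr15:74915847-74920686, − strand) encode near-identical Ly6C proteins. Of 393 coding bases 384 were identical (97.7%), with a longest identical run of 188 bases. The stretch of coding exon from base 6 to base 65 held 6 of the 9 differences, in capitals here.
Ly6c2, chr15:74983452-74983511: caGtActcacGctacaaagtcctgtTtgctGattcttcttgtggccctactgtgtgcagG
Ly6c1, chr15:74920296-74920355: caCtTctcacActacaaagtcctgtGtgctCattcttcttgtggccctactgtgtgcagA
Of all words of 100 bases in the annotated transcripts of Ly6c2, 18.7% also occurred in Ly6c1, and 10.8% of words of 150 bases did. The cultures showed how the counting handled the pair. Ly6c1 had between 704 and 4146 reads per culture, and Ly6c2 had between 4 and 12, which is 0.169% to 0.71% of the Ly6c1 count. In the tumors Ly6c2 had 9.95% to 160% as many reads as Ly6c1. Tumor reads of Ly6c2 therefore lay far above the share seen where Ly6c1 predominated.

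**Figure D1:**
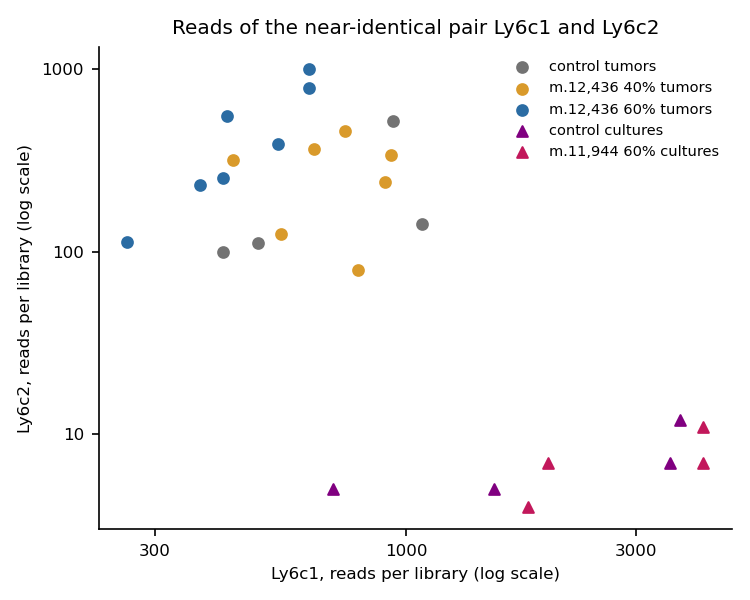
Reads of Ly6c2 (y axis, log scale) against reads of Ly6c1 (x axis, log scale), 1 point per library, circles for tumors and triangles for cultures, colored by group. The 8 cultures sit at 4 to 12 reads of Ly6c2 at any level of Ly6c1, below all 18 tumors.

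Per kilobase of exon, the only scale on which genes were set against each other, Mmp9 had the highest level of the 10 genes, with a mean of 29.6 CPM per kb over the 18 tumors. Il1b followed at 6.00, Ly6c2 at 4.45, S100a9 at 3.49, S100a8 at 2.95, Csf3r at 1.97, Chil3 at 1.32, Cxcr2 at 0.768, Mmp8 at 0.340 and Retnlg at 0.198 CPM per kb. Mmp9 was above Il1b in 18 of 18 tumors, and their ranges did not meet. Every other pair of neighbors in this order overlapped in range over the tumors. Il1b was above Ly6c2 in only 11 tumors and Ly6c2 above S100a9 in 10, so these 3 genes were not ordered beyond their spread, while each later gene was above the next in 13 to 16 of the 18 tumors.

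In the cultures the genes were at or near 0. S100a9, Csf3r, Cxcr2, Retnlg, Mmp8 and Il1b had no read in any of the 8 cultures. S100a8 had 1 read in all, Chil3 had 3 and Mmp9 had 13, of which at most 6 were in 1 culture. A count of 0 allows up to 3 reads, or 0.119 CPM in the shallowest culture, counting error only. Against that floor per library the mean of the control tumors was at least 112-fold higher for Il1b, 84.8-fold for Csf3r, 38.5-fold for S100a9, 18.3-fold for Cxcr2, 10.8-fold for Mmp8 and 1.87-fold for Retnlg. The tumor reads of these genes thus had no counterpart in cultured B78-D14 cells.

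Tumor groups were tested by the quasi-likelihood method of edgeR, fitted on all 18 tumors, with two-sided p values adjusted by the Benjamini-Hochberg method over all genes tested. A gene was said to have changed at an adjusted p under 0.1, and folds are log2 fold changes with their standard error (SE) and 95% interval. None of the 9 tested genes changed in any of the 3 comparisons. Between m.12,436 60% and control tumors 0 of 9 passed, where 2.31% of all genes did, and at an unadjusted p under 0.05 there were 2 of 9, Mmp8 and Ly6c2, where 16.3% of all genes were. Between m.12,436 40% and control tumors no gene of the whole table passed (0%), and none of the 9 had an unadjusted p under 0.05, against 5.09% of all. Between 60% and 40% tumors 0 of 9 passed, beside 1.81% of all genes, and none had an unadjusted p under 0.05, beside 14.1%. Values of the groups overlapped for all 9 genes in each comparison, and among all genes 4.07%, 0.45% and 0.623% had groups that did not overlap, in the same order. The 9 folds split as 4 above and 5 below 0, with a median of −0.01, for 60% against control tumors. The median was 0.13 with 6 above 0 for 40% against control, and 0.01 with 5 above 0 for 60% against 40%, and over all genes tested the medians were 0.00 in each. The first 2 comparisons share the control tumors and the last shares tumors with both.

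**Figure D2:**
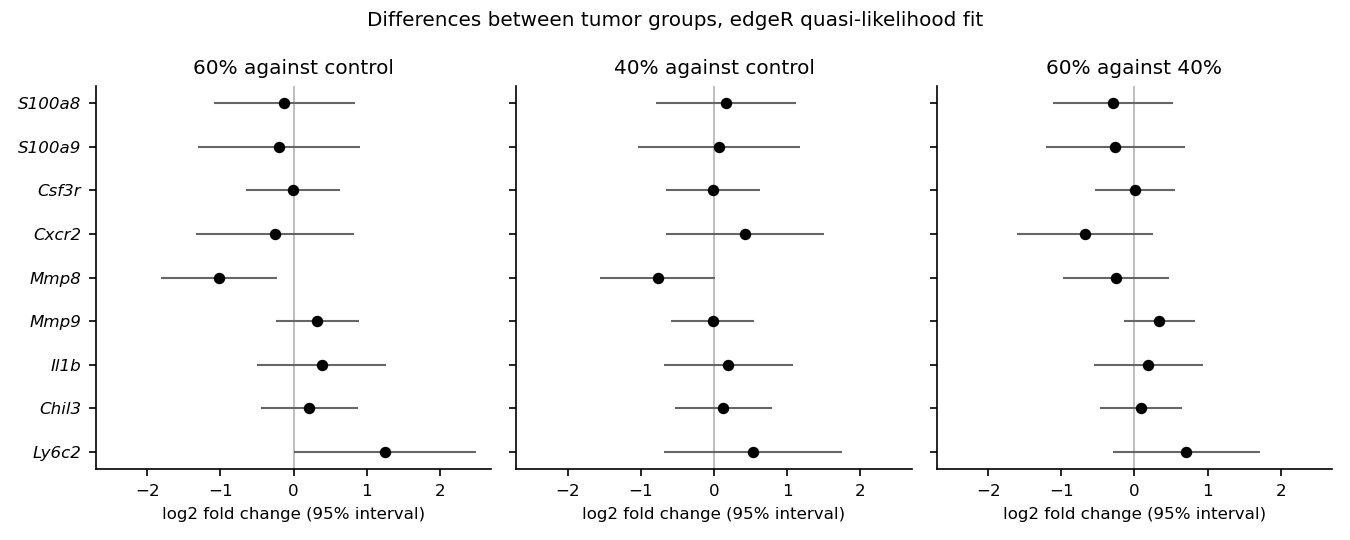
Log2 fold change (x axis) of each tested gene (y axis) with its 95% interval, 1 panel per comparison of tumor groups. All intervals span 0 except, for 60% against control tumors, those of Mmp8 (−1.81 to −0.22) and Ly6c2 (0.01 to 2.49), with adjusted p values of 0.189 and 0.304 from edgeR.

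S100A8 and S100A9 pair as calprotectin, a metal-binding protein that makes up much of the neutrophil cytosol and acts on TLR4. S100a8 stood at 2.16, 2.33, 4.90 and 2.05 CPM in control tumors 1 to 4, where the order is only that of the labels. It ran from 1.36 through a median of 2.28 to 7.66 CPM in m.12,436 40% tumors, and from 1.20 through 2.47 to 4.47 CPM in 60% tumors. Control tumor 3 was high among the controls, 40% tumor 3 was the highest of all, and the groups overlapped widely. The fold for 60% against control tumors was −0.13 (SE 0.46, 95% interval −1.09 to 0.83, adjusted p = 0.922 from edgeR). For 40% against control it was 0.16 (−0.80 to 1.12), and for 60% against 40% it was −0.29 (−1.11 to 0.53).

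S100a9 followed the same tumors. Control tumors 1 to 4 held 3.01, 4.03, 7.44 and 3.83 CPM, and the 40% tumors ran from 1.83 through a median of 3.44 to 11.9 CPM, the 60% tumors from 1.96 through 2.73 to 7.65 CPM. Again control tumor 3 led the controls and the highest value of all was in a 40% tumor, number 3. The 60% tumors averaged 4.02 ± 2.24 CPM (SD, n = 7) and the controls 4.58 ± 1.96 CPM (SD, n = 4), giving a fold of −0.19 (SE 0.53, −1.30 to 0.92, edgeR adjusted p = 0.895). The folds were 0.07 (−1.04 to 1.18) for 40% against control and −0.26 (−1.22 to 0.69) for 60% against 40%. These intervals reach about 1 on the log2 scale on one side or both, so neither gene was shown to be alike in the groups.

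Csf3r encodes the receptor for G-CSF, the growth factor that sustains neutrophil production. The gene (ENSMUSG00000028859, chr4:125918262-125938236, + strand) overlaps the antisense locus Gm32908, and since no source says whether counting used strand, reads of the pair cannot be told apart. Csf3r stood at 7.50, 13.8, 13.4 and 5.65 CPM in control tumors 1 to 4. Values ran from 5.06 through a median of 9.11 to 14.4 CPM in 40% tumors and from 5.30 through 11.5 to 12.5 CPM in 60% tumors. All 60% tumors lay within the range of the controls or below its lowest value, 2 of them below. Csf3r had the narrowest range of the tested genes, 2.85-fold between its lowest and highest tumor. The fold was −0.01 (SE 0.30, −0.65 to 0.63, edgeR adjusted p = 0.99) for 60% against control, −0.02 (−0.66 to 0.62) for 40% against control, and 0.01 (−0.54 to 0.55) for 60% against 40%.

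Cxcr2 (ENSMUSG00000026180, chr1:74193150-74200405, + strand) encodes the receptor for CXCL1, CXCL2 and CXCL5 that neutrophils use to enter tissue. It stood at 1.17, 2.83, 3.65 and 1.03 CPM in control tumors 1 to 4. In 40% tumors it ran from 1.07 through a median of 2.32 to 5.44 CPM, and in 60% tumors from 0.682 through 1.71 to 3.39 CPM. The lowest 60% tumors fell under every control and the highest 40% tumors above, with wide overlap between. The fold for 60% against 40% tumors, −0.68 (SE 0.44, −1.60 to 0.25, edgeR adjusted p = 0.519), was the largest of Cxcr2. Against control tumors it was −0.25 (−1.34 to 0.83, adjusted p = 0.85) in 60% and 0.42 (−0.66 to 1.51, adjusted p = 0.96) in 40% tumors, so that control tumors lay between the groups.

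Retnlg, which encodes the resistin-like protein RELMγ of neutrophils, was too sparse to test (ENSMUSG00000022651, chr16:48692547-48694862, + strand). Its reads numbered 4, 6, 7 and 6 in control tumors 1 to 4. They ranged from 1 through a median of 4 to 12 in 40% tumors and from 1 through 6 to 8 in 60% tumors. Most of these counts differ by no more than a few reads, and the highest was in 40% tumor 3, as for S100a8 and S100a9. With the filter on low counts dropped, the edgeR fold for 60% against control tumors was −0.02 (−1.04 to 0.99).

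MMP8 is the collagenase that neutrophils keep in their secondary granules. Mmp8 (ENSMUSG00000005800, chr9:7558457-7568487, + strand) overlaps the antisense locus Gm31751. Its reads numbered 17, 27, 75 and 21 in control tumors 1 to 4, or 0.764, 0.900, 2.47 and 0.980 CPM. In 40% tumors it ran from 0.436 through a median of 0.648 to 1.58 CPM and in 60% tumors from 0.241 through 0.699 to 1.05 CPM. In 6 of the 7 60% tumors Mmp8 was below every control tumor, and the remaining one lay above 3 of the controls. The 60% tumors averaged 0.642 ± 0.254 CPM (SD, n = 7) and the controls 1.28 ± 0.799 CPM (SD, n = 4), giving a fold of −1.02 (SE 0.38, −1.81 to −0.22) with an unadjusted p of 0.0146 and an adjusted p of 0.189 from edgeR. Without control tumor 3, which held 75 of the reads, the fold was −0.46 (unadjusted p = 0.242, adjusted p = 0.754). For 40% against control tumors it was −0.77 (−1.55 to 0.01, unadjusted p = 0.0538, adjusted p = 0.924), and for 60% against 40% it was −0.25 (−0.97 to 0.48). The 5 tested red blood cell markers were also lower in 60% than in control tumors, 5 of 5 with a median fold of −1.40 and none past the threshold, and their part in the Mmp8 values was not tested.

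MMP9 is a gelatinase of neutrophil granules that macrophages and other cells make as well. Mmp9 (ENSMUSG00000017737, chr2:164780439-164797771, + strand) was the one gene of the set with high counts in every tumor. Control tumors 1 to 4 held 90.5, 78.2, 92.5 and 141 CPM. The 40% tumors ran from 47.0 through a median of 88.1 to 175 CPM, and the 60% tumors from 82.2 through 132 to 159 CPM. Although the 60% median lay above 3 of the controls, the groups overlapped, with a mean of 126 ± 28.1 CPM (SD, n = 7) against 101 ± 27.6 CPM (SD, n = 4). The fold was 0.32 (SE 0.27, −0.25 to 0.89, edgeR adjusted p = 0.58). It was −0.02 (−0.58 to 0.54) for 40% against control and 0.34 (−0.14 to 0.82, adjusted p = 0.53) for 60% against 40%.

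Il1b (ENSMUSG00000027398, chr2:129206490-129213059, − strand) encodes the inflammatory cytokine IL-1β of activated myeloid cells, and its locus overlaps the antisense loci Il1bos and Gm14023. No word of 100 bases in its annotated transcripts occurred in another gene on either strand. The 4 control tumors were close together at 14.7, 14.6, 12.7 and 11.2 CPM. The 40% tumors ran from 4.81 through a median of 11.2 to 32.8 CPM and the 60% tumors from 9.64 through 15.4 to 25.0 CPM. The mutant tumors thus spread to both sides of the controls, and of the 60% tumors 4 lay above all controls and 2 below the lowest. Means were 17.4 ± 6.72 CPM (SD, n = 7) in 60% and 13.3 ± 1.66 CPM (SD, n = 4) in control tumors. The fold was 0.38 (SE 0.42, −0.50 to 1.27, edgeR adjusted p = 0.684), with 0.20 (−0.69 to 1.08) for 40% against control and 0.19 (−0.55 to 0.93) for 60% against 40%.

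Chil3, also known as Ym1, encodes a chitinase-like protein of monocytes and alternatively activated macrophages (ENSMUSG00000040809, chr3:106054870-106074880, − strand). Its near relative Chil4 had no read in any of the 18 tumors. Chil3 stood at 0.988, 2.13, 1.71 and 3.59 CPM in control tumors 1 to 4. Values ran from 1.32 through a median of 2.25 to 3.83 CPM in 40% tumors and from 1.25 through 2.80 to 3.17 CPM in 60% tumors. Every 60% tumor fell inside the range of the controls. The fold was 0.22 (SE 0.32, −0.45 to 0.88, edgeR adjusted p = 0.778) for 60% against control, 0.13 (−0.54 to 0.80) for 40% against control and 0.09 (−0.48 to 0.65) for 60% against 40%.

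Ly6c2 marks classical monocytes and is also carried by some T cells. Control tumors 1 to 4 held 4.99, 17.3, 4.64 and 4.67 CPM. The 40% tumors ran from 3.28 through a median of 11.9 to 18.8 CPM, and the 60% tumors from 5.93 through 17.7 to 35.0 CPM. Control tumor 2 stood far above the other controls, which lay below all 60% tumors, and 4 of the 7 60% tumors were above every control. The mean was 18.9 ± 11.5 CPM (SD, n = 7) in 60% tumors, against 7.90 ± 6.27 CPM (SD, n = 4) in the controls, for a fold of 1.25 (SE 0.59, 0.01 to 2.49) with an unadjusted p of 0.0485 and an edgeR adjusted p of 0.304. Without control tumor 2 the fold was 1.99 (unadjusted p = 0.00684, adjusted p = 0.12). The folds were 0.54 (−0.68 to 1.75, adjusted p = 0.96) for 40% against control tumors and 0.71 (−0.30 to 1.72, adjusted p = 0.536) for 60% against 40%.

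Leukocyte RNA moved with these values. Ptprc averaged 112 ± 26.9 CPM (SD, n = 7) in 60% tumors, against 73.0 ± 18.6 CPM (SD, n = 4) in the controls, for a fold of 0.61 (SE 0.19, 0.21 to 1.02, edgeR unadjusted p = 0.00533, adjusted p = 0.135). With Ptprc as a covariate in the same fit, the fold of Ly6c2 for 60% against control tumors was −0.30 (−1.21 to 0.60). That of Mmp8 was −0.57 (−1.64 to 0.49). Both intervals span 0, so neither sign was settled. All 12 T and NK cell markers were higher in 60% than in control tumors, with a median fold of 0.76, none past the threshold, and a summed level of 17.5 to 89.8 CPM against 16.7 to 49.1 CPM. Ly6c1, which endothelial cells make, went the other way, with a fold of −0.51 (SE 0.19, edgeR adjusted p = 0.198) against control tumors and −0.61 (SE 0.17, adjusted p = 0.1, at the threshold but not under it) against 40% tumors. The part of each cell type in the Ly6c2 values was not tested.

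**Figure D3:**
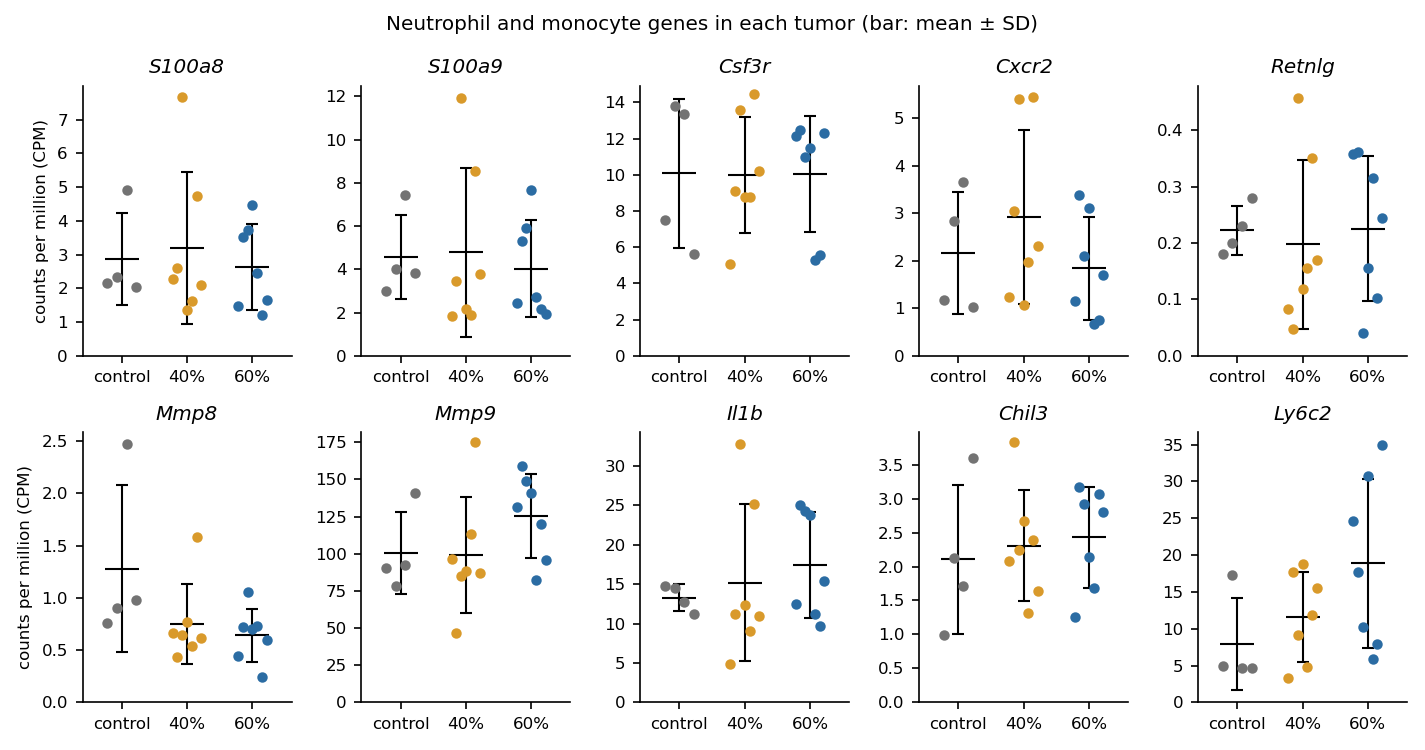
Level of each of the 10 genes in each tumor (y axis, CPM, linear from 0), by group (x axis), 1 point per tumor with bars for the mean and SD of 4 control, 7 m.12,436 40% and 7 m.12,436 60% tumors. The groups overlap in every panel, and control tumor 3 leads the controls for Mmp8 at 2.47 CPM, and control tumor 2 for Ly6c2 at 17.3 CPM.

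Setting the counts relative to Ptprc in each tumor, an alternative chosen after seeing the data, asked how the genes stood per unit of leukocyte RNA. This scaling lowered most of the transcriptome in 60% against control tumors, by a median of −0.62, and 74% of all genes then passed, 71 higher and 11931 lower. Of the 9 genes 5 passed. Mmp8 (−1.77), Cxcr2 (−0.99), S100a8 (−0.86) and Csf3r (−0.72) were lower, and Ly6c2 (0.62) was higher. Against 40% tumors 62.9% of all genes passed with a median of −0.46, and 4 of the 9 did, Cxcr2 (−1.20), S100a8 (−0.77), Mmp8 (−0.72) and Csf3r (−0.50), all lower. For 40% against control tumors 0.0493% of all genes passed and none of the 9. Neither share of the 9 exceeded that of the whole table, so the number of lower calls says no more of these genes than of most others. For Mmp8 in 60% against control tumors the interval, −2.45 to −1.09, lay below the median of all genes. Control tumor 3 had both the highest Mmp8 and the lowest Ptprc of all tumors. All folds on this scale carry the spread of Ptprc.

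The genes varied widely between tumors of a group, and several did so together. From the lowest to the highest of the 18 tumors, Ly6c2 varied 10.7-fold, Mmp8 10.2-fold, Cxcr2 7.98-fold, Il1b 6.82-fold, S100a9 6.53-fold, S100a8 6.36-fold, Chil3 3.88-fold, Mmp9 3.73-fold and Csf3r 2.85-fold, against 3.02-fold for Ptprc. A pair of m.12,436 40% tumors was at the top of many of them. Tumor 3 had the highest S100a8, S100a9, Retnlg and Il1b, and tumor 6 the highest Csf3r, Cxcr2 and Mmp9. The highest Ly6c2 and Ptprc were both in 60% tumor 7. Control tumor 3, with the most S100a8, S100a9, Cxcr2 and Mmp8 among the controls, had the lowest Ptprc of all 18 tumors, 51.0 CPM.

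Correlations of log2 CPM over the 18 tumors are given as descriptions, since both values of a point come from one library and share its depth and scaling. S100a8 and S100a9 had a Pearson r of 0.93, which was 0.88 without the 2 tumors farthest from the median of the first gene. Cxcr2 followed S100a8 (r = 0.79), S100a9 (0.79) and Csf3r (0.80), and Il1b followed S100a9 (0.79). After subtraction of group means these values were 0.93 for the S100 pair and between 0.80 and 0.85 for the others. With 2 tumors left out in the same way, Cxcr2 had r of 0.71 to S100a8, 0.67 to S100a9 and 0.78 to Csf3r. For Il1b and S100a9 r was then 0.68. Mmp9 stood apart, with r between 0.02 and 0.36 to the other genes, and so did Chil3, between −0.21 and 0.25. Csf3r was looser within the group of S100a8, S100a9, Cxcr2 and Il1b, with 0.50 to S100a8 and 0.60 to S100a9. These fell to 0.39 and 0.50 with 2 tumors left out. Ly6c2 reached 0.59 to Csf3r and 0.45 to Il1b. Among the genes of the set and Ptprc, Ly6c2 was closest to Ptprc (r = 0.84, 0.82 within groups) and had little relation to S100a8 (−0.05) and S100a9 (0.10). S100a8 and S100a9 did not follow Ptprc, with r of −0.24 and −0.12.

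**Figure D4:**
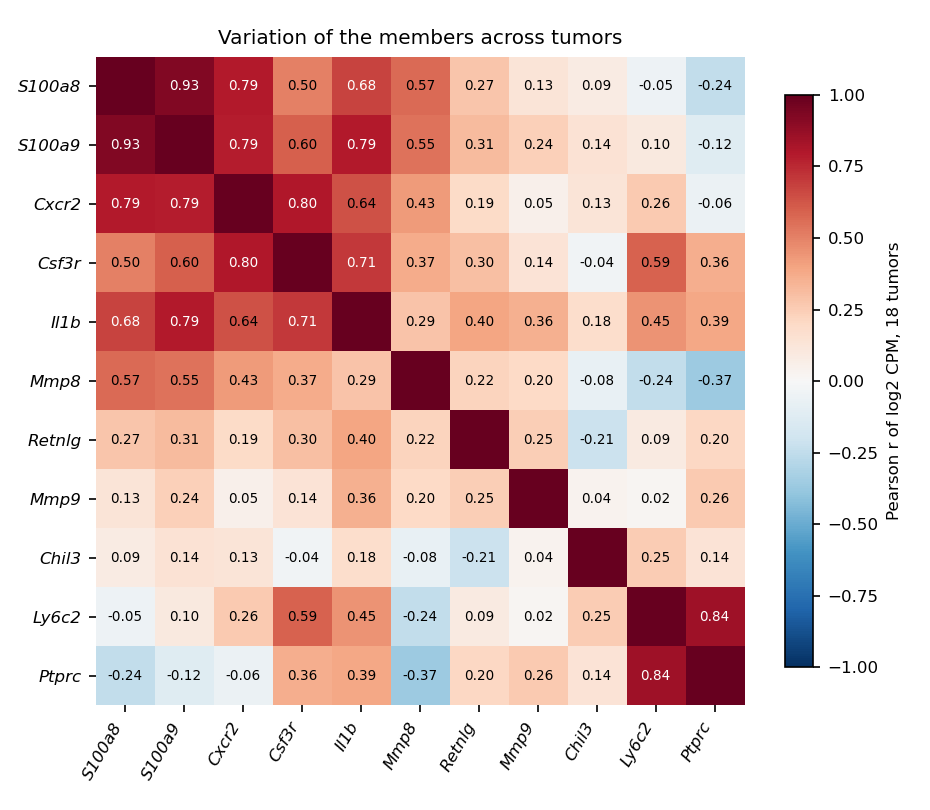
Pearson r of log2 CPM over 18 tumors for each pair of genes (both axes), with Ptprc, colored by r and with its value in each cell. S100a8, S100a9, Csf3r, Cxcr2 and Il1b have r between 0.50 and 0.93 to each other, and Ly6c2 has its highest r, 0.84, with Ptprc.

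Ligands of these receptors were measured in the same tumors. Cxcr2 went with Cxcl5 (r = 0.88) and Cxcl2 (0.67), and less closely with Cxcl3 (0.57), Cxcl1 (0.44) and Ppbp (0.37), the other ligand genes. Csf3r had little relation to Csf3, the gene of G-CSF (0.20), though S100a9 did (0.74). Without the 2 tumors farthest from the S100a9 median, r of S100a9 and Csf3 was 0.60. Il1b went with the decoy receptor gene Il1r2 (0.77) and the receptor antagonist gene Il1rn (0.65), and less with Nlrp3 (0.54) and Casp1 (0.38), whose proteins process IL-1β. Mmp9 showed no such relation to Timp1, the gene of its inhibitor (−0.13). Ly6c2 went with the monocyte genes Plac8 (0.87) and Ccr2 (0.75) and, over all tumors, hardly with Ly6c1 (0.05). It also went with the summed T and NK cell markers (0.81), and less with the summed macrophage markers (0.46). Within groups r with Ly6c1 was 0.47, beside 0.84 for Plac8 and 0.67 for Ccr2. Among the genes tested, with the 10 genes of the set left out, those closest to S100a9 were Sertad1 (r = 0.91), Cxcl2 (0.89) and Nfil3 (0.86), to Cxcr2 Fst (0.90), Cxcl5 (0.88) and Il1r2 (0.86), to Chil3 Gm56677 (0.82), Srebf2 (0.76) and Zdhhc5 (0.75), and to Ly6c2 Slfn5 (0.97), Ms4a4c (0.97) and Slfn1 (0.96).

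**Figure D5:**
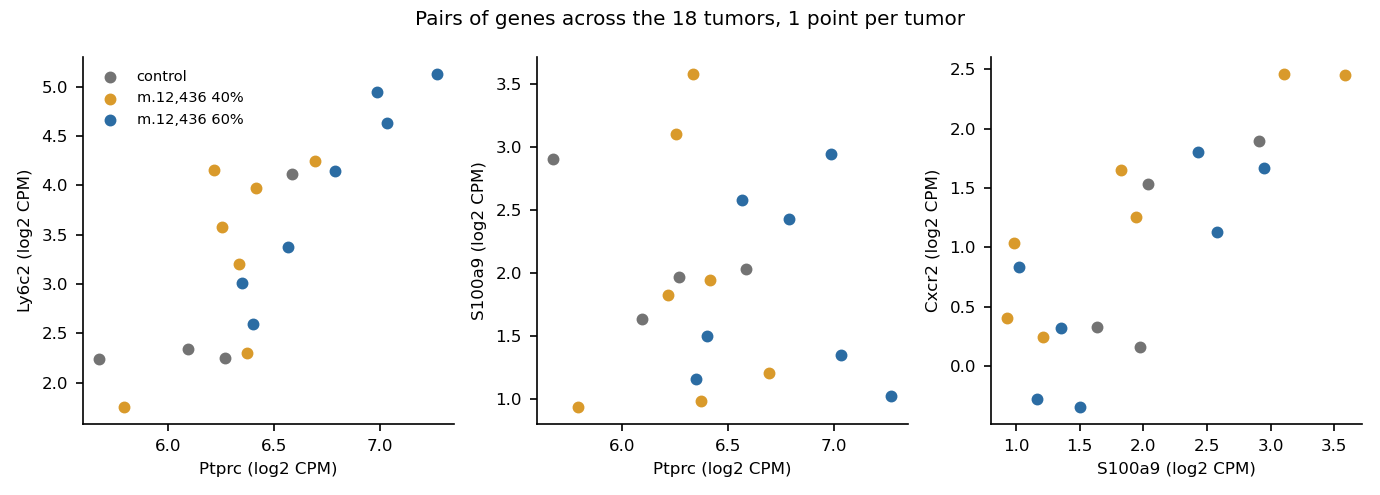
Log2 CPM of pairs of genes in the 18 tumors, 1 point per tumor colored by group, with Ly6c2 against Ptprc on the left, S100a9 against Ptprc in the middle and Cxcr2 against S100a9 on the right. Points rise together on the left (r = 0.84) and right (0.79) and not in the middle (−0.12).

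The label of the set was checked against other markers of these cells. Ly6g, the defining surface marker of mouse neutrophils, had between 0 and 5 reads per tumor and was at 0 in 3 tumors. The 8 cultures held 4 reads of it in all, at most 3 in 1 culture. Control tumors averaged 0.078 CPM, under the culture floor of 0.119 CPM, so Ly6g was not found above the cultures. Of 9 granule genes made mainly by maturing neutrophils, Mpo, Elane, Camp, Ngp and Fcnb had at most 4 reads in any tumor. Ctsg reached 9, Prtn3 ranged from 2 to 10 and Ltf from 1 to 15 reads, and Lcn2, which other cells also make, from 10 to 89. Of 14 granule protein genes 6 could be tested, chiefly genes that macrophages share. Ncf4, a subunit gene of the phagocyte oxidase, rose in 60% against control tumors (fold 0.50, edgeR adjusted p = 0.0888), and Ncf4 (0.49, 0.0593) and the lysozyme gene Lyz2 (0.52, 0.0744) rose against 40% tumors. None of 19 other neutrophil-enriched genes passed against control tumors, with 11 higher and a median of 0.11 beside 0.00 for all genes. The closest to the threshold were Selplg (0.55, adjusted p = 0.133) and Clec4e (0.69, 0.148). In 60% against 40% tumors none of the 19 passed, while 16 were higher, with a median of 0.43 beside 0.00 for all genes.

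Other monocyte-enriched genes were tested in full, and 21 of 24 were higher in 60% than in control tumors, with a median fold of 0.39. Itgam, the integrin chain CD11b of neutrophils, monocytes and macrophages, rose by 0.38 (edgeR adjusted p = 0.0261) and the transcription factor gene Klf4 by 0.58 (0.0977), while S100a4 fell by 0.57 (0.0123). Against 40% tumors Itgam (0.42, adjusted p = 0.00611) and Irf8 (0.46, 0.0828), a factor of monocyte development, rose, and S100a4 fell by 0.52 (0.011). Cultured cells also carried RNA of this list, at a summed 2658 to 6674 CPM, mostly fibronectin (Fn1). Among 12 genes of IL-1 and S100A8/A9 signaling, 10 were higher against control tumors with a median of 0.39, and Casp1 rose by 0.67 (edgeR adjusted p = 0.0704), with Tlr2 at 0.53 (0.13). Against 40% tumors Nlrp3 rose by 0.43 (0.0831) and Il1rap, the accessory chain of the IL-1 receptor, fell by 0.43 (0.047).

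The remaining lists gave no change against control tumors. Of 15 chemokines and growth factors that act on neutrophils and monocytes 7 were higher and the median was −0.05, with Ppbp, a platelet chemokine gene, at −2.55 (edgeR adjusted p = 0.13) and Csf1 at 0.24 (0.289). Of 12 tested metalloproteinases and inhibitors 9 were higher with a median of 0.22, among them Mmp14 at 0.26 (0.136) and Mmp25, a neutrophil membrane protease gene, at 1.04 (0.262). Macrophage markers had a median of 0.07, with Cd163 at −1.31 and Mrc1 at −0.79, and only Msr1 rose against 40% tumors, by 0.35 (edgeR adjusted p = 0.0908). Among T and NK cell markers Gzmb stood at 0.86 and Nkg7 at 0.76. Medians were −0.05 for 2 B and plasma cell markers (Cd79a −0.10, Cd79b 0.00), −0.90 for 6 mast cell and basophil markers (Ms4a2 −1.07, Cma1 −0.98) and −0.20 for 6 endothelial markers (Tek −0.42). The endothelial list includes Ly6c1 and summed to 20.5 to 163 CPM in the cultures. Red blood cell genes were led, by edgeR p value and not by size of fold, by Hba-a2 (−1.54) and Hba-a1 (−1.40). Their list had summed levels of 15.9 to 83.7 CPM in 60% and 24.9 to 149 CPM in control tumors. Krt10 (−0.16) was the one keratinocyte marker tested, and that list summed to 2.13 to 3.26 CPM in tumors and 1.69 to 2.89 CPM in cultures. No gene of any list changed between 40% and control tumors.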

How the data were processed

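RNA-seq was read from 18 tumors and 8 cultures. Per the authors' methods, STAR was the aligner (GRCm39) and featureCounts the counter, and the deposited values are raw counts per gene. Of 47 columns 26 were matched to samples by name, by numbering or through the paper's source data, and 21 were not used. Symbols of 56017 of 56748 gene IDs came from GENCODE. The genes studied, the context lists and the tests were chosen with earlier results of these data known. Tests were run with edgeR 4.0.16 under R 4.3.3 (TMM, filterByExpr, robust quasi-likelihood test over all 18 tumors, Benjamini-Hochberg adjustment), and CPM with a prior count of 2 were used on the log scale. The test was checked on simulated data. Alternatives were limma-voom (limma 3.58.1), DESeq2 1.42.0, other scalings, filters and thresholds, only the groups compared, a replicate block, Ptprc as covariate and leaving out each tumor. Named were the 10 genes, Ptprc, Ly6c1 and Chil4, from each context list the 2 genes with the smallest p for 60% against control tumors and up to 4 that passed, and the 3 genes outside the set of 10 most correlated with S100a9, Cxcr2, Chil3 and Ly6c2. Partner genes, the granule genes near 0 and Fn1 were named after their values were seen. The 163 context genes were looked up by symbol and 162 were found. Between 16475735 and 36173502 reads were counted per library, and rare genes are limited by counting error. The result of 1 context gene is not reported here.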

Additional observations from a re-analysis of the deposited data

Results flagged for a closer look

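In 4 of 30 groups of tumors checked, 1 tumor stood apart from the rest of its group by Dixon's criterion at the 95% level. Chance alone meets it in about 1 of 20 independent groups with a normal spread. The 30 groups reuse the same tumors, so their count cannot be set against that rate. S100a8 and Mmp8 were high in control tumor 3, at 4.90 and 2.47 CPM. Mmp8 was also high in m.12,436 40% tumor 6, at 1.58 CPM. Ly6c2 was high in control tumor 2, at 17.3 CPM.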

How the results depend on the processing

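None of the 9 tested genes passed the threshold under any alternative but one, scaling to Ptprc, which was chosen after seeing the data and called 5 for m.12,436 60% against control tumors and 4 for 60% against 40%. The number of genes of the whole table that passed depended on the setting. For 60% against control tumors it was 374, and 1056 with DESeq2, 943 with only these 2 groups, 178 with a replicate block, 150 at an adjusted p under 0.05, 16 with Ptprc as a covariate and 12002 relative to Ptprc. Without 1 tumor it ranged from 66 (without control tumor 3) to 724 (without control tumor 4), with 125 without control tumor 1, 716 without control tumor 2, and 186, 207 and 239 without 60% tumors 1, 4 and 3. For 40% against control tumors it was 0, and 5 with DESeq2, 8 relative to Ptprc and 0 to 4 without 1 tumor, the 4 without control tumor 4, and 1 each without control tumor 1 and 40% tumor 7. For 60% against 40% it was 293, and 744 with DESeq2, 178 with no filter, 113 at an adjusted p under 0.05, 35 with Ptprc as a covariate and 10204 relative to Ptprc. Without 1 tumor it ranged from 108 (60% tumor 1) to 452 (40% tumor 4), with 125, 132 and 139 without 60% tumors 4, 2 and 7, and 128 and 137 without 40% tumors 6 and 1. The cause of these moves was not tested.

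Some folds changed sign, most of them near 0 but also that of Ly6c2 with Ptprc as a covariate, from 1.25 for 60% against control tumors and from 0.71 for 60% against 40%. None was past the threshold except where named. For 60% against control tumors, the replicate block gave S100a8 0.15, S100a9 0.025, Csf3r 0.11 and Cxcr2 0.0033, the Ptprc covariate gave S100a8 0.26 and Ly6c2 −0.30, and scaling to Ptprc gave Mmp9 −0.30, Il1b −0.26 and Chil3 −0.34. For 40% against control, Csf3r was 0.10 with the block, S100a8 −0.090 and S100a9 −0.19 relative to Ptprc, and S100a9 −0.19 and Il1b −0.033 with limma-voom. For 60% against 40%, the covariate gave Csf3r −0.34, Mmp8 0.053, Il1b −0.059 and Ly6c2 −0.59, scaling to Ptprc gave Csf3r −0.50 (past the threshold), Mmp9 −0.13, Il1b −0.26 and Chil3 −0.37, and Csf3r was −0.019 with limma-voom and −0.0065 with no filter. Leaving out 1 tumor gave ranges across 0. For 60% against control tumors these were −0.30 to 0.28 for S100a8, −0.43 to 0.16 for S100a9, −0.19 to 0.18 for Csf3r, −0.46 to 0.12 for Cxcr2 and −0.013 to 0.59 for Chil3. For 40% against control they were −0.20 to 0.57 for S100a8, −0.32 to 0.42 for S100a9, −0.20 to 0.18 for Csf3r, −0.21 to 0.20 for Mmp9, −0.10 to 0.36 for Il1b and −0.10 to 0.51 for Chil3. For 60% against 40% they were −0.47 to 0.10 for S100a8, −0.50 to 0.15 for S100a9, −0.11 to 0.11 for Csf3r, −0.42 to 0.061 for Mmp8 and −0.012 to 0.25 for Chil3. The groups share replicate numbers, but deviations of same-numbered tumors correlated at means of −0.15, 0.00 and −0.02, so the numbers were not taken as pairs. Among genes called for 60% against control tumors, 156 were higher and 218 lower with TMM, and 129 and 293 with library size alone. A minimum of 10 reads in every tumor left no value for Mmp8. Depth limits Retnlg and Mmp8 most.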
